A study of Mus musculus with 24 samples.

Results

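The Hox genes are a family of homeodomain transcription factors, and the account below covers the members that carry the letter of 1 of the 4 clusters (HoxA, HoxB, HoxC or HoxD) and a paralogue number. They were taken by symbol: 37 of the 39 Hox genes in the RefSeq table had a probe set annotated with that gene alone, among 19938 genes read in this way, and each of the 37 was read by 1 probe set. The others are not analysed here. Messenger RNA of whole soleus and whole quadriceps of male mice aged 40 to 42 days was measured on Affymetrix arrays, with 6 soleus cKO, 6 soleus control, 6 quadriceps cKO and 6 quadriceps control arrays. All mice carried 2 copies of a conditional nebulin allele. Nebulin (Neb) is the giant protein that runs along the thin filament of skeletal muscle. The conditional knockouts (cKO) were also hemizygous for MCK-Cre, a transgene that expresses Cre recombinase from the promoter of muscle creatine kinase and so acts in muscle fibres, and the controls lacked it. The strain background was mixed, C57BL/6J and 1219S6/SvEvTac as the labels spell it. According to the submitters the quadriceps of the knockout is much reduced in size and the soleus is not significantly reduced.

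Hox genes lie in each cluster in the order in which they are used along the body axis, with low paralogue numbers at the end that acts towards the head and high numbers at the end that acts towards the tail. In the limb bud the high-numbered genes of HoxA and HoxD are switched on in sequence from the trunk towards the digits, and genes of HoxC are used in the hindlimb. Connective tissue cells and satellite cells (the stem cells of muscle) of the adult limb are known to keep a part of this pattern. The quadriceps lies at the front of the thigh and the soleus in the calf, so the comparison of the muscles is one of position along the leg as well as of fibre type.

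Values are log2 intensities, and a value is called above the dim limit where it exceeds the 30th percentile of all probe sets of its array, which lay between 3.51 and 3.72. A gene was kept for testing if it was above the limit on at least 6 arrays, which left 15999 genes, 35 of them Hox genes. A difference is called where its limma p-value, adjusted by Benjamini-Hochberg over the 15999 genes, is under 0.05. As a check of the labels, Neb averaged 11.24 ± 0.20 in soleus cKO and 12.38 ± 0.21 in soleus controls, and 10.84 ± 0.23 in quadriceps cKO and 12.29 ± 0.17 in quadriceps controls (SD, n = 6 each), with no overlap in either muscle. The 3 arrays of lowest weight, when arrays were weighted by their agreement with their group, were quadriceps control 4 (0.207), quadriceps control 6 (0.389) and soleus control 1 (0.394), where the highest weight was 1.77. Of the 35 tested Hox genes, quadriceps control 4 held the highest value of its group for 21 and quadriceps control 6 the lowest for 12. Soleus control 1 was highest for 6 and lowest for 3. Arrays outside these 3 also stood out: soleus control 4 was highest for 13 and soleus control 5 lowest for 13.

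Of the 37 members, 35 were above the dim limit on at least 6 arrays in adult leg muscle, as were 15999 of all 19938 genes read. On every one of the 24 arrays 30 of the 37 members exceeded it: 7 of 10 in HoxA (chromosome 6), 9 of 9 in HoxB (chr11:96194316-96368254), 8 of 9 in HoxC (chr15:102921131-103036856) and 6 of 9 in HoxD (chr2:74668225-74765142; coordinates in GRCm38, the assembly mm10 names). Hoxc13 was above the limit on 0 arrays and Hoxd1 on 3, and neither was tested. By group, the members above the limit on all 6 arrays numbered 33 in soleus cKO, 33 in soleus controls, 31 in quadriceps cKO and 32 in quadriceps controls. With the limit at the 20th percentile 37 members were kept, and 36 exceeded it on every array. With it at the 40th percentile 31 were kept, and 22 exceeded it on every array. Intensities of different probe sets have no common scale, so the levels of different genes are not set against each other.

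**Figure D1:**
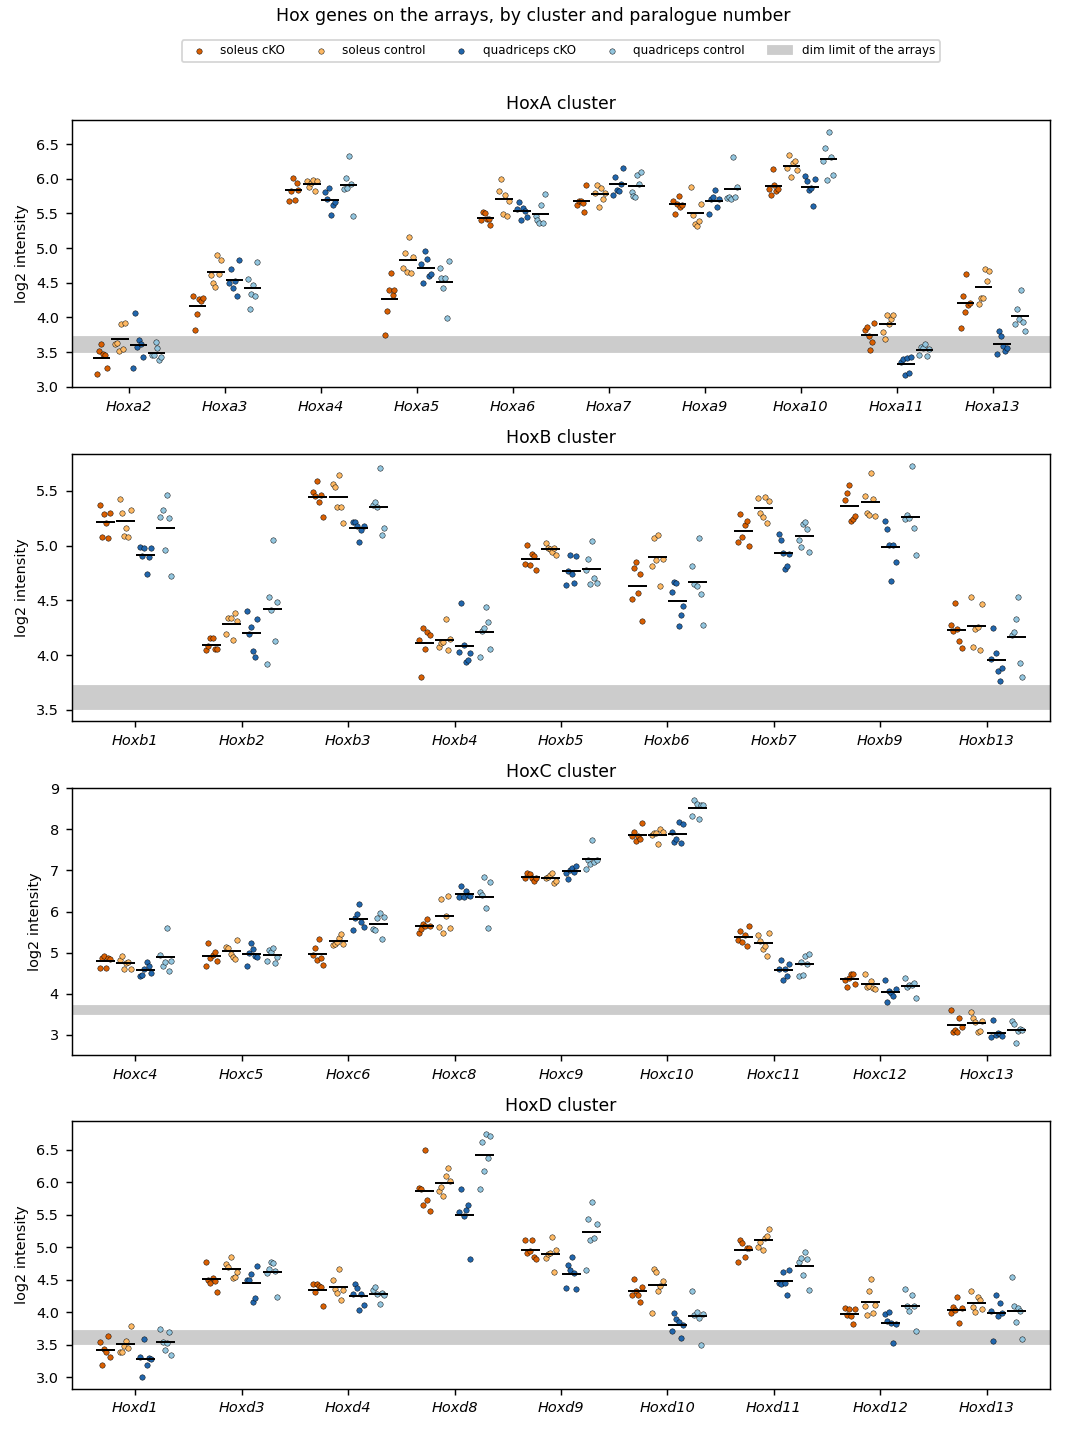
Log2 intensity of the 37 Hox genes on each array (points) with the group mean (bar), by cluster and paralogue number, in soleus cKO, soleus control, quadriceps cKO and quadriceps control from left to right. The grey band spans the dim limits of the arrays, 3.51 to 3.72. Hoxc6 and Hoxc8 lie lower and Hoxc11, Hoxa13, Hoxd10 and Hoxd11 higher in soleus than in quadriceps.

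The first question was how the soleus differs from the quadriceps. In cKO mice 16 of the 35 tested members differed between the muscles, 11 higher and 5 lower in soleus (31.4% and 14.3% of the members), where 28.8% of all genes tested were called, 11.9% higher and 16.9% lower. In controls 14 differed, 7 higher and 7 lower in soleus, where 33.5% of all genes were called, 15.2% higher and 18.3% lower. Both splits moved with the scaling. In controls the split was 5 higher and 8 lower with each array centred on its median. With centring on the 75th percentile it was 9 higher and 5 lower. In cKO it was 8 higher and 5 lower with median centring, 13 and 4 with 75th percentile centring, and 7 and 4 with quantile normalization. The calls over all genes in cKO moved as well, from 1907 higher and 2707 lower. They were 1110 and 3524 with median centring, and 3818 and 1750 with 75th percentile centring. The median difference of the members was 0.11 in cKO and 0.09 in controls, beside -0.01 and 0.03 over all genes. Members whose 2 groups of 6 arrays did not overlap numbered 10 in cKO (15.9% of all genes did not overlap) and 4 in controls (11.7%). As these are bulk samples, less RNA per cell and fewer cells of a type cannot be told apart.

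The cKO and the control comparison share no array in their means. Their tests are not independent, since each took the spread of a gene from all groups together. Of the 35 members, 8 (22.9%) were called in the same direction in both comparisons, where 12.6% of all genes were. Hoxa11, Hoxa13, Hoxb7, Hoxc11, Hoxd10 and Hoxd11 were higher in soleus both times, and Hoxc6 and Hoxc8 lower both times. All 8 tested members of paralogue groups 11 to 13 had positive differences in both comparisons, with a median of 0.36 in cKO (5 called higher) and 0.25 in controls (4 called higher). That all are positive depends on the scaling. Centring each array on its median lowers all genes alike. It moved the all-gene median from 0.03 to -0.07 in controls and from -0.01 to -0.07 in cKO. The smallest of the 8, 0.05 for Hoxc12 in controls and 0.05 for Hoxd13 in cKO, are under that shift and do not stay positive. Of the 10 members of groups 5 to 8, 4 were positive in cKO and 6 in controls. Hoxd9 was called in both comparisons but in opposite directions, as 0.9% of all genes were, and is described with the knockout below.

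**Figure D2:**
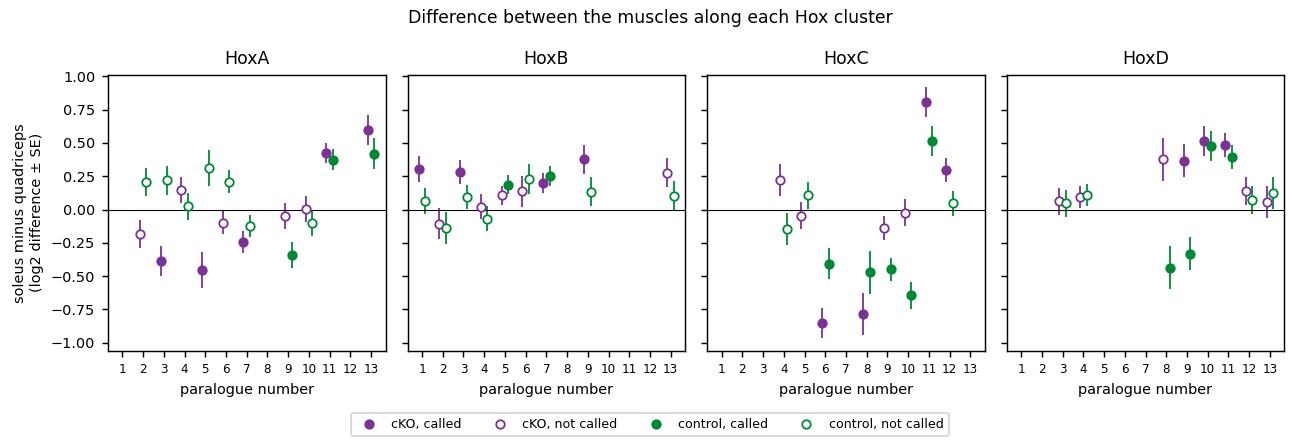
Difference in log2 intensity, soleus minus quadriceps (± SE, 6 arrays a group), for the tested members along each cluster against paralogue number, in cKO (purple) and in controls (green). Filled points are called. HoxC runs from negative differences at Hoxc6 and Hoxc8 to positive ones at Hoxc11 in both genotypes. With the scaling as deposited, every point at paralogue numbers 11 to 13 lies above 0.

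Along HoxC, calls changed from lower in soleus at Hoxc6 and Hoxc8 to higher at Hoxc11 in both genotypes. Hoxc6, a gene used at the level of the chest and forelimb in the embryo, measured 4.70 to 5.33 (median 4.90) in soleus cKO, against 5.54 to 6.19 (median 5.80) in quadriceps cKO. In controls it measured 5.18 to 5.46 (median 5.24) in soleus and 5.33 to 5.96 (median 5.71) in quadriceps. The cKO groups did not overlap and the control groups did: the difference was -0.85 ± 0.12 (SE; 1.8-fold, adjusted p = 4.61e-06) in cKO and -0.41 ± 0.12 (adjusted p = 0.00761) in controls. Without the 3 arrays of lowest weight the control difference was not called. Hoxc8, its neighbour in rank, measured 5.49 to 5.82 (median 5.65) in soleus cKO, against 6.34 to 6.61 (median 6.39) in quadriceps cKO. Soleus cKO arrays were again all lower, with a difference of -0.78 ± 0.16 (adjusted p = 0.000754). In controls Hoxc8 spread widely, with 5.49 to 6.39 (median 5.76) in soleus and 5.60 to 6.84 (median 6.44) in quadriceps. Quadriceps control 4 and 5 lay within the soleus range, and the difference of -0.47 ± 0.16 (adjusted p = 0.0244) was not called when any 1 of 5 arrays was left out (soleus control 1, 3 or 6, or quadriceps control 3 or 6, adjusted p up to 0.0754).

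Hoxc9 and Hoxc10, a gene that marks the lumbar level and the hindlimb, were lower in soleus in controls. Hoxc10 measured 7.71 to 8.15 (median 7.84) in soleus cKO and 7.68 to 8.19 (median 7.85) in quadriceps cKO, groups that cover the same range (-0.02 ± 0.10, adjusted p = 0.868). In controls it measured 7.64 to 8.01 (median 7.90) in soleus, against 8.26 to 8.72 (median 8.59) in quadriceps. All 6 quadriceps control arrays stood above all soleus control arrays, a difference of -0.64 ± 0.10 (1.56-fold, adjusted p = 1.54e-05). Hoxc9 measured 6.75 to 6.95 (median 6.81) in soleus cKO and 6.79 to 7.11 (median 6.99) in quadriceps cKO, and 6.70 to 6.95 (median 6.82) in soleus controls and 7.03 to 7.73 (median 7.22) in quadriceps controls. Its difference was -0.14 ± 0.09 (adjusted p = 0.226) in cKO and -0.45 ± 0.09 (adjusted p = 0.000228) in controls, whose groups did not overlap.

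Hoxc11, whose annotated span lies 10094 bases from that of Hoxc10, went the other way. It measured 5.17 to 5.66 (median 5.37) in soleus cKO, against 4.33 to 4.81 (median 4.61) in quadriceps cKO, and 4.92 to 5.49 (median 5.23) in soleus controls, against 4.43 to 4.96 (median 4.75) in quadriceps controls. Every soleus cKO array was above every quadriceps cKO array, and in controls only soleus control 5 fell within the quadriceps range. The difference was 0.81 ± 0.11 (1.75-fold, adjusted p = 5.49e-06) in cKO and 0.52 ± 0.11 (adjusted p = 0.000684) in controls. Hoxc12, the next gene, measured 4.17 to 4.48 (median 4.36) in soleus cKO and 3.80 to 4.34 (median 4.05) in quadriceps cKO. The groups overlapped, and the difference of 0.30 ± 0.09 (adjusted p = 0.0172) was not called without quadriceps cKO 2 (adjusted p = 0.0523). In controls Hoxc12 gave 0.05 ± 0.09 (adjusted p = 0.731). Hoxc4 and Hoxc5, at the other end of the cluster, differed by between -0.14 and 0.22 in both genotypes and were not called.

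In HoxA the calls that both genotypes shared were at the 5′ end, Hoxa11 and Hoxa13. Hoxa13, which acts in the hand and foot plate, measured 3.85 to 4.63 (median 4.19) in soleus cKO, against 3.47 to 3.81 (median 3.57) in quadriceps cKO. In controls it measured 4.19 to 4.70 (median 4.41) in soleus and 3.81 to 4.39 (median 3.95) in quadriceps. The cKO groups stood apart (0.60 ± 0.12, 1.51-fold, adjusted p = 0.000418), with 3 of the 6 quadriceps cKO arrays under the dim limit, and in controls only quadriceps control 4 reached the soleus range (0.42 ± 0.12, adjusted p = 0.00597). Hoxa11, a gene of the lower leg and forearm in the embryo, was near the dim limit, with 3.52 to 3.91 (median 3.77) in soleus cKO and 3.16 to 3.42 (median 3.38) in quadriceps cKO. It exceeded the limit on 5 of 6 arrays in each soleus group, on 0 in quadriceps cKO and on 1 in quadriceps controls. Soleus cKO was at least 1.13-fold higher than quadriceps cKO (adjusted p = 0.000211). In controls Hoxa11 measured 3.69 to 4.04 (median 3.94) in soleus, against 3.44 to 3.62 (median 3.55) in quadriceps, and the groups did not overlap (0.37 ± 0.08, adjusted p = 0.000442).

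Other HoxA calls were made in 1 genotype only. In the interaction test described below, the difference between the genotypes was not called for Hoxa9 (0.29, adjusted p = 0.185) or Hoxa7 (-0.12, adjusted p = 0.56). Hoxa9 measured 5.32 to 5.88 (median 5.43) in soleus controls and 5.71 to 6.31 (median 5.73) in quadriceps controls, where quadriceps control 4 stood above the rest. The difference of -0.34 ± 0.10 (adjusted p = 0.00974) was not called when the control arrays were fitted alone, and in cKO it was -0.05 ± 0.10 (adjusted p = 0.734). Hoxa7 measured 5.52 to 5.91 (median 5.67) in soleus cKO and 5.76 to 6.16 (median 5.88) in quadriceps cKO. These groups overlapped, and the difference of -0.24 ± 0.08 (adjusted p = 0.0303) was not called when any 1 of 6 arrays was left out (adjusted p up to 0.0825, without quadriceps cKO 6). Hoxa4 was not called in any comparison: it measured 5.67 to 6.01 (median 5.83) in soleus cKO, 5.83 to 5.98 (median 5.95) in soleus controls, 5.48 to 5.86 (median 5.68) in quadriceps cKO and 5.46 to 6.33 (median 5.89) in quadriceps controls. Hoxa2 was above the limit on 6 of 24 arrays, and its difference was -0.18 in cKO and 0.20 in controls, neither called.

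In HoxD, Hoxd10 and Hoxd11, which shape the thigh and lower leg together with their HoxA and HoxC paralogues, were higher in soleus in both genotypes. Hoxd10 measured 4.15 to 4.52 (median 4.30) in soleus cKO, against 3.61 to 3.99 (median 3.83) in quadriceps cKO, and 3.996 to 4.67 (median 4.45) in soleus controls, against 3.50 to 4.33 (median 3.96) in quadriceps controls. The cKO groups did not overlap and the control groups did, with differences of 0.51 ± 0.11 (adjusted p = 0.00132) and 0.48 ± 0.11 (adjusted p = 0.00159). Hoxd11 measured 4.77 to 5.12 (median 4.99) in soleus cKO, against 4.27 to 4.65 (median 4.45) in quadriceps cKO, and 4.95 to 5.28 (median 5.11) in soleus controls, against 4.34 to 4.93 (median 4.79) in quadriceps controls. Neither genotype showed overlap, and the differences were 0.48 ± 0.09 (adjusted p = 0.000323) and 0.39 ± 0.09 (adjusted p = 0.00137). The annotated spans of Hoxd10 and Hoxd11 share 2744 bases, so their probe sets may not read wholly separate transcripts. Hoxd3, Hoxd4, Hoxd12 and Hoxd13 differed by 0.05 to 0.14 in both genotypes and were not called.

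In HoxB the differences between the muscles reached 0.38 in cKO and 0.25 in controls. Hoxb7 measured 4.999 to 5.29 (median 5.13) in soleus cKO and 4.78 to 5.10 (median 4.93) in quadriceps cKO, and 5.20 to 5.45 (median 5.35) in soleus controls and 4.94 to 5.21 (median 5.10) in quadriceps controls. Both pairs of groups overlapped slightly, with differences of 0.20 ± 0.07 (adjusted p = 0.0442) and 0.25 ± 0.07 (adjusted p = 0.0101). The cKO difference was not called when any 1 of 8 arrays was left out (adjusted p up to 0.11, without quadriceps cKO 4), and neither was called with each array centred on its median or quantile normalized. Hoxb9 measured 5.23 to 5.55 (median 5.34) in soleus cKO, against 4.68 to 5.23 (median 5.004) in quadriceps cKO, without overlap (0.38 ± 0.11, adjusted p = 0.0112), and in controls the difference was 0.13 ± 0.11 (adjusted p = 0.363). Hoxb1 and Hoxb3, genes of the hindbrain end of the cluster, also stood apart between the cKO groups. Hoxb1 measured 5.07 to 5.37 (median 5.25) in soleus cKO, against 4.74 to 4.99 (median 4.94) in quadriceps cKO (0.30 ± 0.10, adjusted p = 0.0224), and was not called without quadriceps cKO 4 or soleus cKO 1 (adjusted p up to 0.0591). Hoxb3 measured 5.26 to 5.59 (median 5.46) in soleus cKO, against 5.03 to 5.22 (median 5.18) in quadriceps cKO (0.28 ± 0.09, adjusted p = 0.02), and was not called without quadriceps cKO 4 or soleus cKO 3 (adjusted p up to 0.0514). Hoxb5 was called in controls alone: it measured 4.92 to 5.03 (median 4.98) in soleus and 4.65 to 5.04 (median 4.74) in quadriceps (0.19 ± 0.07, adjusted p = 0.045), a call lost when any 1 of 14 arrays was left out (adjusted p up to 0.107, without quadriceps control 3). Hoxb2, Hoxb4, Hoxb6 and Hoxb13 were not called between the muscles.

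Small positive differences were not restricted to Hox genes. Over all 3289 genes with a mean log2 intensity of 4 to 5, where 19 of the Hox members lie, the median difference between soleus and quadriceps was 0.13 in cKO and 0.09 in controls. With the animal as a random block, which treats soleus and quadriceps of 1 genotype and number as paired, Hoxb13 (adjusted p = 0.0333) and Hoxd8 (0.0387) were also called higher in soleus in cKO, and Hoxa5 (0.0376) and Hoxa6 (0.0356) in controls.

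The muscles differed in cell markers as well. All 7 slow fibre markers were higher in soleus in cKO and in controls. Of the 6 adipocyte markers read, 4 were lower and 0 higher in soleus in cKO, and 2 were lower and 1 higher in controls. Their summed linear intensity was 946 to 1860 in soleus cKO, against 1636 to 4784 in quadriceps cKO. In controls the sum was 970 to 1282 in soleus, against 882 to 3675 in quadriceps. Ucp1, the uncoupling protein of brown fat, averaged 4.73 in soleus cKO, against 8.13 in quadriceps cKO, and 4.46 in soleus controls, against 8.30 in quadriceps controls. Of the 8 tendon markers 2 were higher and 1 was lower in soleus in cKO, and 5 were higher in controls, with sums of 3167 to 4477 in soleus cKO, 2818 to 3396 in quadriceps cKO, 3256 to 4278 in soleus controls and 1978 to 3618 in quadriceps controls. In controls 5 of 8 endothelial and 4 of 8 smooth muscle markers were higher in soleus, and in cKO 5 of 8 macrophage and 5 of 12 fibroblast markers were lower there, with 1 and 2 higher. All 7 fast fibre markers were lower in soleus in both genotypes. The part of these cells in the Hox differences was not tested.

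The next question was what the loss of nebulin changed in each muscle. In quadriceps 11 of the 35 members (31.4%) were lower in cKO and 0 were higher, where 40% of all genes were called, 17.7% lower and 22.3% higher. In soleus 6 members (17.1%) were lower in cKO and 0 higher, where 23.1% of all genes were called, 9.94% lower and 13.2% higher. The members' median change was -0.11 in soleus and -0.17 in quadriceps, beside -0.02 and -0.01 over all genes, and among genes of mean 4 to 5 the medians of all genes were -0.06 in soleus and -0.10 in quadriceps. Groups did not overlap for 1 member in soleus (12.8% of all genes) and for 3 in quadriceps (16.2%). Hoxa10 was the only member called in both muscles. The quadriceps count depended on single arrays: it was 6 without quadriceps control 4, 7 without quadriceps control 2, 7 without quadriceps cKO 5 and 17 without quadriceps control 6. The 6 calls that held without any 1 array were Hoxa10, Hoxa13, Hoxc9, Hoxc10, Hoxd8 and Hoxd9. In soleus the count was 2 without soleus control 2, and 3 without soleus cKO 1, soleus cKO 6 or soleus control 4, and Hoxa3 and Hoxa5 were the 2 that held throughout.

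**Figure D3:**
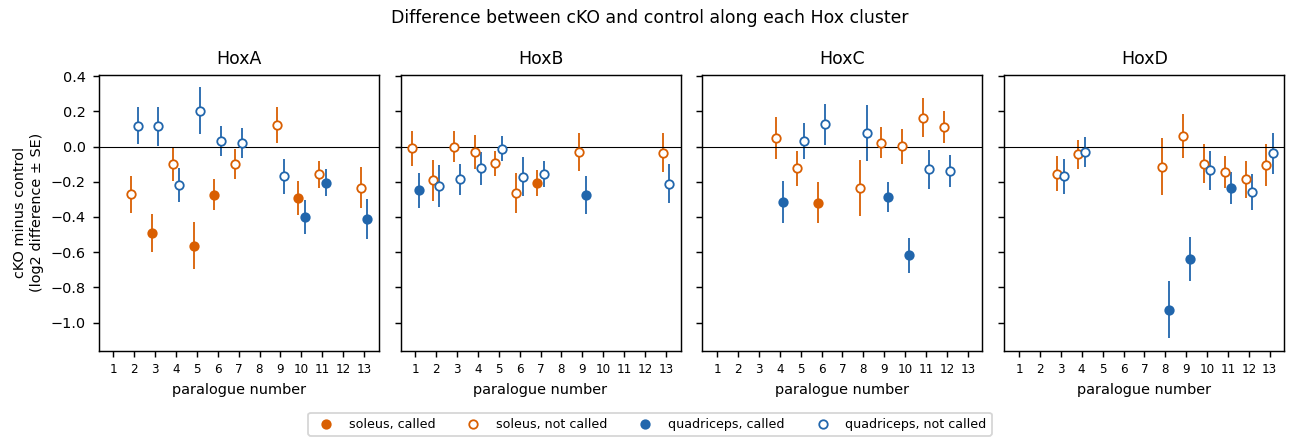
Difference in log2 intensity, cKO minus control (± SE, 6 arrays a group), for the tested members along each cluster against paralogue number, in soleus (orange) and in quadriceps (blue). Filled points are called. Called points lie below 0 in both muscles: in soleus 3 of 6 are Hoxa3, Hoxa5 and Hoxa6, and in quadriceps Hoxd8, Hoxd9 and Hoxc10 lie lowest.

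Hoxd8 and Hoxd9, adjacent in HoxD with 4406 bases between their annotated spans, both fell in cKO quadriceps. Hoxd10, 2656 bases further, did not pass the test there. The stretches of 250 bases before a transcript start of these 3 genes are shown because the first 2 genes passed the test in quadriceps and the third did not (the difference between their changes was not tested), with CG dinucleotides in capitals (RefSeq, GRCm38.p6, plus strand, chr2:74704365-74704614 for Hoxd8, chr2:74697513-74697762 for Hoxd9 and chr2:74691641-74691890 for Hoxd10). For Hoxd8 and Hoxd9 the stretch ends at the start of the annotated span, and for Hoxd10 it lies inside the span (chr2:74684273-74695106).
Hoxd8: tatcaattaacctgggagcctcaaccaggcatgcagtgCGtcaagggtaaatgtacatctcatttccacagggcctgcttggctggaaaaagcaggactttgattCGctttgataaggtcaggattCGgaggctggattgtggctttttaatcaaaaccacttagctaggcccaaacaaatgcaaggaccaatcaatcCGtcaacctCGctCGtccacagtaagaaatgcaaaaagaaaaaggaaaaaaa
Hoxd9: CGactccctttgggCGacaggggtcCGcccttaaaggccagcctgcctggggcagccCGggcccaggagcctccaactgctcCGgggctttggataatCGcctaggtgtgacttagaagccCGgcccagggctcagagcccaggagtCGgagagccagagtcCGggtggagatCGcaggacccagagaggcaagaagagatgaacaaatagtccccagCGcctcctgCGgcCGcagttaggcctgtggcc
Hoxd10: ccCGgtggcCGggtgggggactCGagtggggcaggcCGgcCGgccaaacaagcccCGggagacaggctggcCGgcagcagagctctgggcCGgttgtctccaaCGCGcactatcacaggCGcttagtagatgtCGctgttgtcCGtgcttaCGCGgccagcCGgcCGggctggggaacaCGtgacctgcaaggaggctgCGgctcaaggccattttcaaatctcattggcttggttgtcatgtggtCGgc
The stretch of Hoxd8 held 6 CG dinucleotides at 44.4% G and C, that of Hoxd9 held 13 at 65.2% and that of Hoxd10 held 20 at 65.6%. RefSeq gave such windows for 21 of the 37 members (23 windows). In HoxB only Hoxb1 and Hoxb4 had one, and in HoxC only Hoxc4, so the windows come mostly from HoxA and HoxD. The 23 windows had a median ratio of observed to expected CG of 0.687, beside 0.374 over 32851 windows of all genes. Their median content of G and C was 59.2%, beside 52.4%. The motif TGATNNAT, bound by Hox proteins together with Pbx cofactors, was found on either strand in 3 of the 23 windows (13%), beside 7.68% of all windows, and in none of the 3 shown. TATAAA was found in 13% of the members' windows, beside 12.4% of all windows, and also in none of the 3.

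Hoxd8 measured 4.83 to 5.90 (median 5.55) in quadriceps cKO, against 5.90 to 6.75 (median 6.50) in quadriceps controls. The groups met at their edges without overlap, with quadriceps cKO 6 lowest, and the change was -0.93 ± 0.16 (1.9-fold, adjusted p = 5.16e-05). In soleus it measured 5.56 to 6.50 (median 5.81) in cKO and 5.79 to 6.22 (median 5.97) in controls, with soleus cKO 4 highest and a change of -0.11 ± 0.16 (adjusted p = 0.666). Hoxd9 measured 4.36 to 4.85 (median 4.63) in quadriceps cKO, against 4.65 to 5.70 (median 5.25) in quadriceps controls. All quadriceps control arrays but array 1 were above all quadriceps cKO arrays, and the change was -0.64 ± 0.12 (1.55-fold, adjusted p = 0.000214). In soleus Hoxd9 measured 4.83 to 5.12 (median 4.93) in cKO and 4.63 to 5.17 (median 4.91) in controls (0.06 ± 0.12, adjusted p = 0.783).

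Between soleus and quadriceps Hoxd9 differed by 0.37 ± 0.12 in cKO (adjusted p = 0.0297) and by -0.33 ± 0.12 in controls (adjusted p = 0.0416). The cKO call was lost when any 1 of 4 arrays was left out (soleus cKO 1 or 4, or quadriceps cKO 1 or 6, adjusted p up to 0.0706), and the control call when any 1 of 8 arrays was left out (adjusted p up to 0.117, without quadriceps control 4). The cKO call was also lost with median centring and with quantile normalization, and the control call with 75th percentile centring, with array weights, with only the groups compared and without the 3 arrays of lowest weight (-0.17, adjusted p = 0.335). Hoxd8 differed by 0.38 ± 0.16 in cKO (adjusted p = 0.0786) and by -0.44 ± 0.16 in controls (adjusted p = 0.0387), and the control call was lost when any 1 of 8 arrays was left out (adjusted p up to 0.0876, without quadriceps control 6).

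**Figure D4:**
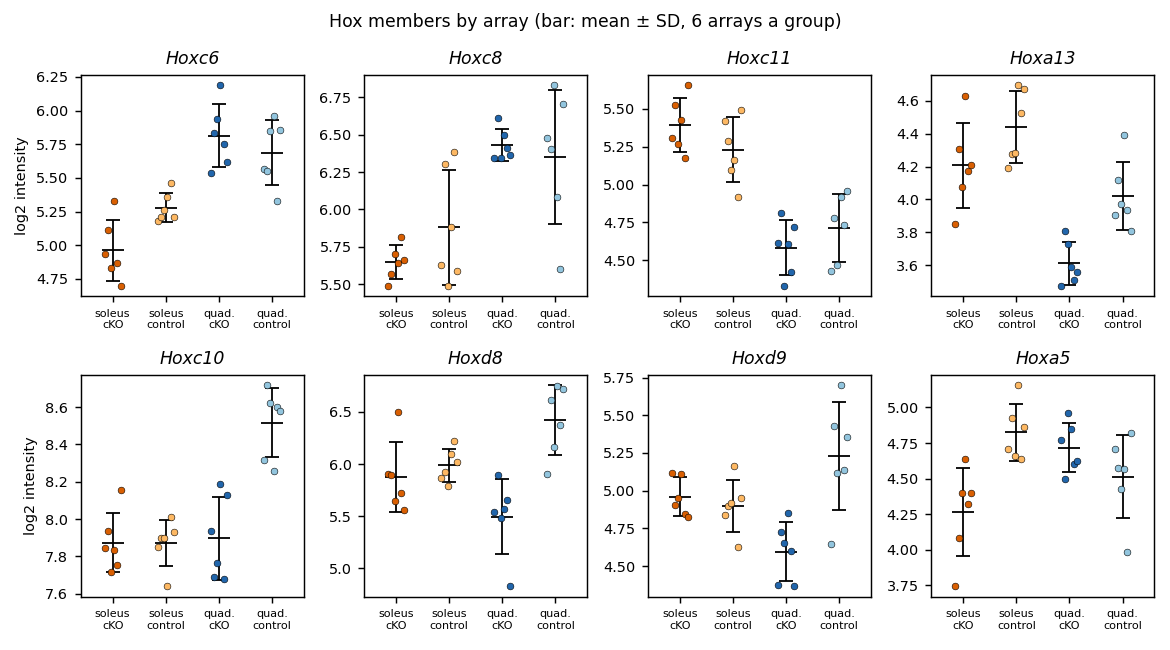
Log2 intensity of 8 Hox genes on each array (points) with mean ± SD (n = 6), in soleus cKO, soleus control, quadriceps cKO and quadriceps control from left to right. In the upper row the order of the muscles is alike in both genotypes, and the lower row holds 4 of the 5 genes whose change with the knockout differed between the muscles. Quadriceps controls stand above the other 3 groups without overlap for Hoxc10. Quadriceps controls have the highest mean for Hoxd8 and Hoxd9, and soleus cKO the lowest for Hoxa5, each overlapping at least 1 other group.

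Hoxc10 fell in quadriceps to the range of the soleus. It measured 7.68 to 8.19 (median 7.85) in quadriceps cKO, against 8.26 to 8.72 (median 8.59) in quadriceps controls, a change of -0.62 ± 0.10 without overlap (1.53-fold, adjusted p = 2.00e-05). In soleus the change was 0.00 ± 0.10 (adjusted p = 0.994). Hoxc9 changed by -0.29 ± 0.09 in quadriceps (adjusted p = 0.0101) and by 0.02 ± 0.09 in soleus (adjusted p = 0.889). Its highest quadriceps control array was again array 4, and without that array the change was -0.19 (adjusted p = 0.0243). Of the 7 members in paralogue groups 9 and 10, 5 were lower in cKO quadriceps (17.7% of all genes were) and the median change was -0.29. In soleus 1 was lower (9.94% of all genes were) with a median of 0.00, and the difference between the muscles was not tested for the subgroup.

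Hoxa10, a gene of the thigh segment, measured 5.61 to 6.04 (median 5.91) in quadriceps cKO, against 5.98 to 6.67 (median 6.28) in quadriceps controls, and 5.77 to 6.14 (median 5.85) in soleus cKO, against 6.02 to 6.33 (median 6.19) in soleus controls. Each pair overlapped by few arrays. The change was -0.40 ± 0.10 in quadriceps (adjusted p = 0.00193) and -0.29 ± 0.10 in soleus (adjusted p = 0.0289), and the soleus call was lost when any 1 of 7 arrays was left out (adjusted p up to 0.072, without soleus control 2) and with each array centred on its median. Hoxa13 fell by 0.41 ± 0.12 in quadriceps (adjusted p = 0.00603), where the lowest control array met the highest cKO array. Its change in soleus was -0.23 ± 0.12 (adjusted p = 0.153).

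The other 5 calls in quadriceps were at the edge of the test. Hoxc4 measured 4.44 to 4.77 (median 4.56) in quadriceps cKO and 4.57 to 5.61 (median 4.78) in quadriceps controls, with array 4 highest (-0.31 ± 0.12, adjusted p = 0.036), and its call was lost when any 1 of 5 arrays was left out (quadriceps cKO 1, 2 or 6, or quadriceps control 1 or 4, adjusted p up to 0.106). Without quadriceps control 4 the change of Hoxc4 was -0.17 (adjusted p = 0.106). Hoxb9 changed by -0.28 ± 0.11, with 4.68 to 5.23 (median 5.004) in cKO and 4.91 to 5.73 (median 5.25) in controls (adjusted p = 0.0433), and was not called when any 1 of 8 arrays was left out (adjusted p up to 0.139, without quadriceps control 4). Without quadriceps control 4 the change of Hoxb9 was -0.18 (adjusted p = 0.139). Hoxb1 measured 4.74 to 4.99 (median 4.94) in quadriceps cKO and 4.72 to 5.46 (median 5.26) in quadriceps controls. Its change of -0.25 ± 0.10 (adjusted p = 0.0448) was not called when any 1 of 9 arrays was left out (adjusted p up to 0.123, without quadriceps control 4). Hoxd11 changed by -0.23 ± 0.09 (adjusted p = 0.0428) and was not called when any 1 of 8 arrays was left out (adjusted p up to 0.112, without quadriceps cKO 5). Hoxa11 differed by -0.21 ± 0.08 (adjusted p = 0.0344) without overlap, but with 11 of the 12 arrays under the dim limit, which gives no fold, and was not called when any 1 of 5 arrays was left out (quadriceps cKO 3 or 5, or quadriceps control 2, 3 or 4, adjusted p up to 0.0836). Hoxd12, at an adjusted p of 0.05 (-0.26 ± 0.10), lay just beyond the threshold and was called with the animal as a block (adjusted p = 0.047).

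In soleus the 2 calls that held without any 1 array were Hoxa5 and Hoxa3. Hoxa5 measured 3.74 to 4.64 (median 4.36) in soleus cKO, against 4.64 to 5.16 (median 4.79) in soleus controls. The highest cKO array met the lowest control array, and the change was -0.56 ± 0.13 (1.48-fold, adjusted p = 0.0026). Hoxa3 measured 3.82 to 4.31 (median 4.25) in soleus cKO, against 4.43 to 4.90 (median 4.62) in soleus controls, with no overlap (-0.49 ± 0.11, 1.41-fold, adjusted p = 0.00141). Both genes act in the neck and chest region of the embryo, and both gave positive values in quadriceps that did not pass the test. In quadriceps Hoxa5 measured 4.50 to 4.96 (median 4.70) in cKO and 3.98 to 4.82 (median 4.57) in controls (0.20 ± 0.13, adjusted p = 0.228). Hoxa3 measured 4.30 to 4.82 (median 4.51) in quadriceps cKO and 4.12 to 4.79 (median 4.40) in quadriceps controls (0.11 ± 0.11, adjusted p = 0.416). Among cKO mice both were thus lower in soleus than in quadriceps, with a difference of -0.45 ± 0.13 for Hoxa5 (adjusted p = 0.0135) and for Hoxa3 of -0.39 ± 0.11 (adjusted p = 0.0104). In controls their differences were 0.31 (adjusted p = 0.0735) and 0.22 (adjusted p = 0.127). The annotated span of Hoxa3 shares 2834 bases with Hoxa5 and 3815 with Hoxa6, so these probe sets may share transcripts.

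Hoxa6 measured 5.33 to 5.51 (median 5.41) in soleus cKO and 5.46 to 5.99 (median 5.72) in soleus controls (-0.27 ± 0.09, adjusted p = 0.0211), and was not called without soleus control 2 (adjusted p = 0.0732). Hoxc6 changed by -0.32 ± 0.12 in soleus (adjusted p = 0.0461), and its call was lost when any 1 of 11 arrays was left out (adjusted p up to 0.118, without soleus cKO 6). Hoxb7 changed by -0.21 ± 0.07 (adjusted p = 0.0437), a call lost when any 1 of 8 arrays was left out (adjusted p up to 0.104, without soleus cKO 6) and also with the animal as a block. With each array centred on its median, the 4 soleus calls other than Hoxa3 and Hoxa5 were not made. Of the 10 members in paralogue groups 5 to 8, 4 were lower in cKO soleus (9.94% of all genes were) with a median of -0.22, and 1 in cKO quadriceps (17.7%) with a median of 0.03.

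The change with the knockout differed between the muscles for 5 of the 35 members (14.3%), where 12.3% of all genes passed this test (4.89% positive and 7.39% negative). For Hoxd8 (0.81 ± 0.23, adjusted p = 0.0194), Hoxd9 (0.70 ± 0.18, adjusted p = 0.00998) and Hoxc10 (0.62 ± 0.14, adjusted p = 0.00477) the change in soleus minus that in quadriceps was positive. For Hoxa5 (-0.77 ± 0.19, adjusted p = 0.00856) and Hoxa3 (-0.61 ± 0.16, adjusted p = 0.0108) it was negative. All 5 calls held without any 1 array. The other 30 members were not called, among them Hoxc9 (0.31, adjusted p = 0.0973) and Hoxb9 (0.24, adjusted p = 0.324). Without the 3 arrays of lowest weight, an alternative chosen after seeing the data, Hoxd8 was not called. With the animal as a block Hoxc6 (-0.45, adjusted p = 0.0315) and Hoxa2 (-0.39, adjusted p = 0.0396) were also called.

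Markers of cells between the fibres moved with the knockout. Of 12 fibroblast and fibro-adipogenic markers, 6 were higher in cKO soleus and 0 lower, and 9 were higher in cKO quadriceps and 1 lower. Their summed intensity was 11215 to 14989 in soleus cKO and 11444 to 13421 in soleus controls, and 14304 to 17140 in quadriceps cKO and 9343 to 15505 in quadriceps controls. Of 9 satellite cell markers 4 were higher in cKO soleus and 8 in cKO quadriceps, with sums of 1106 to 1430 in soleus cKO, 947 to 1156 in soleus controls, 1201 to 1496 in quadriceps cKO and 801 to 1000 in quadriceps controls. Of 8 macrophage markers 6 were higher in each muscle, with sums of 817 to 1172 in soleus cKO, 565 to 736 in soleus controls, 1115 to 1297 in quadriceps cKO and 640 to 1056 in quadriceps controls. Of 6 adipocyte markers 3 were higher in cKO quadriceps and 0 in cKO soleus. In cKO soleus 5 of 8 endothelial markers were lower and 0 higher, 4 of 8 smooth muscle markers lower and 1 higher, and 4 of 8 tendon markers lower and 1 higher. In cKO quadriceps 0 endothelial markers were called, 2 smooth muscle markers were higher and 1 lower, and 1 tendon marker was higher and 1 lower. Of the 7 fast fibre markers 6 were lower in cKO soleus and 5 in cKO quadriceps. All 7 slow fibre markers were higher in cKO quadriceps, with sums of 15017 to 21553 in cKO and 2963 to 8534 in controls. The part of these cells in the Hox changes was not tested.

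The Hox partners of the TALE family, homeodomain proteins that bind DNA together with Hox proteins, were read for 8 of the 9 genes listed. In quadriceps 3 were higher and 1 lower in cKO, where 40% of all genes were called, and in soleus 2 were higher and 1 lower, where 23.1% were. Meis1 measured 5.98 to 6.40 (median 6.17) in soleus cKO, against 5.53 to 5.98 (median 5.79) in soleus controls, and 6.03 to 6.46 (median 6.24) in quadriceps cKO, against 5.59 to 6.01 (median 5.89) in quadriceps controls. It rose by 0.40 ± 0.09 (adjusted p = 0.00197) and 0.40 ± 0.09 (adjusted p = 0.00127), without overlap in quadriceps. Pknox2 fell by 0.30 ± 0.08 in soleus (adjusted p = 0.00751) and fell by 0.44 ± 0.08 in quadriceps (adjusted p = 0.000128). Meis2, which acts near the trunk end of the limb, measured 4.23 to 4.54 (median 4.36) in soleus cKO, against 4.58 to 5.73 (median 5.03) in quadriceps cKO, a difference of -0.70 ± 0.14 without overlap (adjusted p = 0.00055). In controls its difference was -0.33 ± 0.14 (adjusted p = 0.0658).

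Of 34 regulators of limb identity and limb pattern, 30 were tested. In soleus against quadriceps 6 were higher and 7 lower in cKO, where 28.8% of all genes were called, and 8 were higher and 6 lower in controls, where 33.5% were. Tbx4, a T-box factor of the hindlimb, measured 6.05 to 6.51 (median 6.19) in soleus cKO, against 5.58 to 6.03 (median 5.77) in quadriceps cKO, and 6.16 to 6.44 (median 6.36) in soleus controls, against 5.67 to 6.02 (median 5.79) in quadriceps controls. Every soleus array was higher than every quadriceps array of its genotype, by 0.44 ± 0.09 (adjusted p = 0.000475) in cKO and 0.53 ± 0.09 (adjusted p = 3.04e-05) in controls. Tbx5, the forelimb counterpart, measured 3.43 to 3.86 (median 3.75) in soleus cKO, against 4.11 to 4.40 (median 4.31) in quadriceps cKO, and 3.44 to 3.95 (median 3.86) in soleus controls, against 4.10 to 4.63 (median 4.48) in quadriceps controls. It was lower in soleus without overlap, with differences of -0.60 ± 0.10 (adjusted p = 5.40e-05) in cKO and -0.67 ± 0.10 (adjusted p = 5.27e-06) in controls, and 4 of 6 arrays of each soleus group were above the dim limit. Pitx1, which sets hindlimb identity upstream of Tbx4, differed between the muscles by 0.15 ± 0.12 in cKO (adjusted p = 0.329) and -0.07 ± 0.12 in controls (adjusted p = 0.668). In quadriceps Pitx1 fell by 0.38 ± 0.12 (adjusted p = 0.0124). It measured 4.68 to 5.14 (median 4.86) in quadriceps cKO, against 5.002 to 5.87 (median 5.15) in quadriceps controls. These groups overlapped, and quadriceps control 4 (5.87) and quadriceps control 5 (5.45) stood highest. Leaving out single arrays was not examined for Pitx1.

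Tbx3, a T-box factor of the limb margins, showed a wider gap between the muscles. It measured 6.95 to 7.48 (median 7.13) in soleus cKO, against 6.07 to 6.59 (median 6.28) in quadriceps cKO, and 7.11 to 7.82 (median 7.60) in soleus controls, against 6.29 to 6.54 (median 6.41) in quadriceps controls. The muscles did not overlap, with differences of 0.83 ± 0.11 (1.78-fold, adjusted p = 5.67e-06) and 1.12 ± 0.11 (2.17-fold, adjusted p = 2.12e-08).

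For Six2 and Prrx1 quadriceps controls stood apart and quadriceps cKO arrays lay nearer the soleus, an order also seen for Hoxc10. Six2, a homeodomain factor of connective tissue and tendon precursors, measured 5.14 to 5.87 (median 5.42) in quadriceps cKO, against 6.12 to 6.61 (median 6.44) in quadriceps controls, and 4.99 to 5.22 (median 5.05) in soleus cKO, against 5.02 to 5.46 (median 5.16) in soleus controls. It fell without overlap in quadriceps (-0.98 ± 0.11, adjusted p = 3.78e-08), changed by -0.14 ± 0.11 in soleus (adjusted p = 0.371), and the 2 changes differed (0.84 ± 0.15, adjusted p = 0.000491). Prrx1, a marker of limb connective tissue, measured 9.38 to 9.86 (median 9.53) in quadriceps cKO, against 8.61 to 9.16 (median 8.86) in quadriceps controls, and rose by 0.70 ± 0.09 without overlap (adjusted p = 1.23e-06). In soleus it measured 9.64 to 9.93 (median 9.76) in cKO and 9.62 to 10.06 (median 9.94) in controls (-0.11 ± 0.09, adjusted p = 0.439), and the 2 changes differed (-0.81 ± 0.13, adjusted p = 0.000195). Lbx1, a factor of migrating limb muscle precursors, fell by 0.39 ± 0.10 in soleus (adjusted p = 0.00408) and fell by 0.67 ± 0.10 in quadriceps (adjusted p = 4.48e-06). Of the 30 tested, 1 was higher and 5 lower in cKO soleus, where 23.1% of all genes were called, and 5 were higher and 8 lower in cKO quadriceps, where 40% were, so both counts are near the share of all genes.

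**Figure D5:**
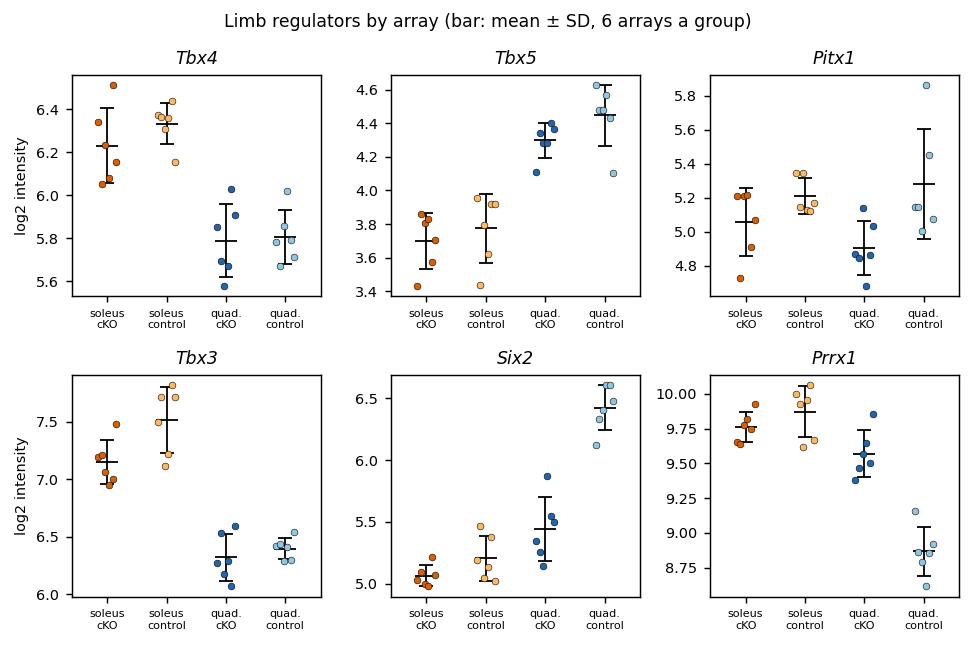
Log2 intensity of 6 limb regulators on each array (points) with mean ± SD (n = 6), in soleus cKO, soleus control, quadriceps cKO and quadriceps control from left to right. Tbx4 and Tbx3 are higher and Tbx5 lower on all soleus arrays than on the quadriceps arrays of the same genotype, Pitx1 overlaps between the muscles, and Six2 and Prrx1 separate quadriceps controls from the other 3 groups.

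Of 30 genes and transcripts that flank or lie inside the clusters 15 were tested. In quadriceps 2 were higher and 3 lower in cKO, where 40% of all genes were called, and in soleus 0 were higher and 1 lower, where 23.1% were, so neither count exceeds the share of all genes. Mir196b, a microRNA gene at chr6:52230081-52230165 (GRCm38.p6, minus strand) between Hoxa9 and Hoxa10 and 1031 bases from the span of Hoxa10, measured 3.39 to 3.87 (median 3.68) in quadriceps cKO, against 3.79 to 4.23 (median 4.04) in quadriceps controls. The edges of the groups overlapped and 5 of 6 quadriceps cKO arrays were above the dim limit, with a change of -0.37 ± 0.09 (adjusted p = 0.00107). In soleus it measured 3.65 to 3.87 (median 3.75) in cKO and 3.72 to 3.92 (median 3.83) in controls (-0.06 ± 0.09, adjusted p = 0.646). The probe set may read longer transcripts of the locus and not the mature microRNA alone. Its mature 5p strand is shown with that of the HoxB and HoxC copies, Mir196a-1 and Mir196a-2, which were above the dim limit on too few arrays to be tested (0, and 3 soleus control arrays; RefSeq, seed in capitals).
miR-196b-5p: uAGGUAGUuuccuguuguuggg
miR-196a-5p: uAGGUAGUuucauguuguuggg
Both carry the same seed, bases 2 to 8, a family known to target Hoxb8 and other Hox messages. Hoxd3os1, an antisense transcript in HoxD, fell by 0.30 ± 0.09 in cKO quadriceps (adjusted p = 0.00986). Mtx2, a mitochondrial gene on the other flank of HoxD, fell by 0.55 ± 0.10 in cKO soleus (adjusted p = 0.000105) and changed by 0.05 ± 0.10 in cKO quadriceps (adjusted p = 0.717). Of the 15 tested, 3 were higher and 3 lower in soleus than in quadriceps in cKO, where 28.8% of all genes were called. In controls 3 were higher and 3 lower as well, where 33.5% of all genes were called. The genes named next are those lower in soleus. Cbx1, a heterochromatin protein gene beside HoxB, differed between soleus and quadriceps by -0.55 ± 0.08 in cKO (adjusted p = 6.44e-06) and -0.52 ± 0.08 in controls (adjusted p = 5.79e-06). Snx10 and Skap2, on the flank of HoxA, differed by -0.68 and -0.52 in cKO (adjusted p = 0.000142 and 0.000222) and by -0.40 and -0.27 in controls (adjusted p = 0.0101 and 0.0309).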

How the data were processed

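Intensities, 1 per probe set and array, are the values the authors deposited. The submitters' processing notes name Affymetrix Expression Console, RMA and build mm10 without versions. The deposited values are on a linear scale (1.76 to 10075) and were turned to log2. Array medians of the log2 values still ran from 4.74 to 4.94, so other scalings were tried. Each group had 6 arrays, and what limits the precision was not tested.

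Of 35557 probe sets, 21789 had 1 gene symbol, 1621 several and 12147 none listed, and the last 2 kinds were left out. For a gene with several probe sets the one with the highest mean was used. The means of the 4 groups were estimated together over the 24 arrays with limma 3.58.1 in R 4.3.3 (20 residual and 6.52 prior degrees of freedom, two-sided tests), a step checked on simulated data. The members, lists and tests were chosen with earlier results of these data known. Named members are those called in any comparison and Hoxa4, by its intensity; list members are those with the smallest p, with Pitx1, Tbx4 and Tbx5 in any case. A fold against a group with all arrays under the dim limit is a bound.

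Alternatives changed the scaling, filter, probe set rule, weights, prior, blocks and arrays. The labels number the samples 1 to 6 in each group and call them biological replicates. Deviations of soleus and quadriceps arrays of 1 genotype and number correlated over genes (0.22 to 0.45 in cKO, 0.16 to 0.31 in controls, 6 of 6 pairs best with their own number), so they were taken as paired in the blocked fit, although number 4 of cKO has different ages in the labels. Between genotypes the same correlation was 0.04 to 0.32 in soleus and -0.15 to 0.17 in quadriceps, over 0.1 in 4 and 3 of 6 pairs, and the numbers were not taken as pairs. Neither slide nor scan date was known, so neither was tested as a batch.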

Additional observations from a re-analysis of the deposited data

Results flagged for a closer look

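The test of the difference between the muscles in the change with the knockout picked out 5 members: Hoxd8 (0.81), Hoxd9 (0.70) and Hoxc10 (0.62), whose decrease was in quadriceps, and Hoxa5 (-0.77) and Hoxa3 (-0.61), whose decrease was in soleus.

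A gap test for 1 array far from the other 5 of its group was applied to 148 sets of a member and a group, of which chance alone marks about 1 in 20, and it marked 10. Quadriceps control 4 was far above its group for Hoxa9 (6.31), Hoxc4 (5.61) and Hoxc9 (7.73), and quadriceps control 6 far below it for Hoxd3 (4.24). Quadriceps cKO 2 was high for Hoxb4 (4.48) and for Hoxc13 (3.36), which was under the dim limit on every array. Quadriceps cKO 4 was low for Hoxb1 (4.74). Soleus cKO 3 was high for Hoxa10 (6.14), soleus cKO 4 for Hoxd8 (6.50) and soleus control 4 for Hoxb4 (4.33).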

How the results depend on the processing

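Of 604 checks of a called member under an alternative other than leaving out 1 array, 556 kept the call, 48 lost it and 0 changed direction. Of the 52 calls, 33 held without any 1 array and 29 under every alternative run. Leaving out 1 array at a time gave 6 to 17 Hox calls for cKO against control in quadriceps, 2 to 7 in soleus, 10 to 14 between the muscles in controls, 13 to 18 in cKO and 5 to 7 for the difference of the changes. Counts moved by over 1.5 times in 5 other cases. With only the compared groups fitted the quadriceps count was 7. With each array centred on its median the soleus count was 2. With a stricter filter on dim genes, which tested 12145 genes, 10 members differed between the muscles in cKO and 3 in the difference of the changes. Hoxa3 and Hoxa5 did not pass that filter and were not tested under it, so it is no check of their calls. Without the 3 arrays of lowest weight the last count was 8. With the replicate number as a fixed block the counts were 11, 6, 14, 17 and 6 in this order (Hoxd11 in quadriceps, Hoxb7 in soleus and in cKO, and Hoxb5 in controls were not called), and with the animal as a paired random block (correlation 0.195) 12, 5, 16, 18 and 7; the calls that the animal block changed are given with the members. Centring on the median moved the median difference of all genes between the muscles in controls to -0.07, where it was 0.03 without it. Members near the dim limit (Hoxa2, Hoxa11, Hoxa13, Hoxd10, Hoxd12) have compressed differences, and whole-muscle RNA does not show which cells carry them. Hoxa3 and Hoxa5 exceeded the limit on all 24 arrays, but their lowest soleus cKO arrays, at 3.82 and 3.74, lay close to it.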

Other observations

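Of 27 listed regulators of Hox cluster chromatin, among them Polycomb proteins, which keep Hox genes off, and Trithorax proteins, which keep them on, 25 were tested. In cKO soleus 2 were higher and 2 lower, and in cKO quadriceps 5 were higher and 1 lower, where 23.1% and 40% of all genes were called. Between soleus and quadriceps 1 was higher and 3 lower in cKO, where 28.8% of all genes were called, and 7 were higher and 4 lower in controls, where 33.5% were. Eed, a core subunit of Polycomb repressive complex 2, differed between the muscles by -0.50 ± 0.10 in cKO (adjusted p = 0.000441) and -0.59 ± 0.10 in controls (adjusted p = 3.27e-05). Kmt2a, a Trithorax methyltransferase, changed with the knockout by 0.05 ± 0.11 in soleus (adjusted p = 0.789) and 0.54 ± 0.11 in quadriceps (adjusted p = 0.000438). Its quadriceps controls spread widely, from 6.91 to 7.95 (SD 0.40), and overlapped quadriceps cKO, at 7.87 to 8.05 (SD 0.06). The SE above pools the spread of the 4 groups, and leaving out single arrays was not examined for Kmt2a. Ash2l, a subunit shared by such methyltransferases, differed between the muscles by 0.03 ± 0.07 in cKO (adjusted p = 0.787) and 0.25 ± 0.07 in controls (adjusted p = 0.00937).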
